A study of Mus musculus with 4 samples.

Results

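Genes of T cell checkpoints and costimulation were described in T cells and natural killer (NK) cells of mouse lung. The set holds 10 genes taken by name: Pdcd1, Ctla4, Icos, Lag3, Tigit, Havcr2, Cd28, Tnfrsf4, Tnfrsf9 and Tnfsf8, out of 27998 genes in the tables, of which 20783 had a unique molecular identifier (UMI) in a cell that was kept. No measured value entered the rule for the genes, but earlier results of these data were known when they were chosen. Lungs of wild-type C57BL/6 mice, labelled male, were minced, digested with collagenase D and DNase and freed of dead cells, and single cells were counted in 10x libraries. There was 1 library per age, at 10 days (NB), 2 months (2 M), 10 months (10 M) and 18 months (18 M), all without treatment or transgene. With 1 library per age a difference between ages cannot be set against replicates, and none was tested. How many animals gave each library is not given in the sources used here.

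A T cell needs the antigen signal of its receptor together with a second signal from costimulatory receptors, and inhibitory receptors hold that response back. Cd28 gives the second signal to resting T cells when it binds Cd80 or Cd86, and Icos, its relative, appears on activated T cells. Ctla4 takes the same ligands away from Cd28, and Pdcd1 (PD-1) damps receptor signalling when it meets Cd274 (PD-L1). Lag3, Tigit and Havcr2 (TIM-3) are further inhibitory receptors of activated or exhausted cells. Tnfrsf4 (OX40) and Tnfrsf9 (4-1BB) are costimulatory receptors of the tumour necrosis factor receptor family, and Tnfsf8 (CD30 ligand) is a ligand of that family. Regulatory T cells, marked by the transcription factor Foxp3, are known to carry much Ctla4, Icos, Tnfrsf4 and Tnfrsf9.

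In mm10, Cd28, Ctla4 and Icos lie in 1 stretch of chromosome 1 on the + strand, with gaps of 113640 and 62094 bases between them. Cd28 (ENSMUSG00000026012) spans 60716800 to 60773359, Ctla4 (ENSMUSG00000026011) 60887000 to 60915832 and Icos (ENSMUSG00000026009) 60977927 to 61000320. Pdcd1 (ENSMUSG00000026285) lies on the same chromosome, 94038305 to 94052553, on the - strand. Tnfrsf4 (ENSMUSG00000029075, 156013843 to 156016612), Tnfrsf9 (ENSMUSG00000028965, 150914562 to 150946102) and Tnfsf8 (ENSMUSG00000028362, 63831308 to 63861347) lie on chromosome 4, where Tnfrsf9 overlaps Camta1 on the other strand. Lag3 (ENSMUSG00000030124) is on chromosome 6, 124904361 to 124911705, Tigit (ENSMUSG00000071552) on chromosome 16, 43648867 to 43664146, and Havcr2 (ENSMUSG00000020399) on chromosome 11, 46454935 to 46481255.

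Sequence just before the annotated start was at hand for 7 of the 10 genes (RefSeq, GRCm38.p6, 250 bases), with no entry for Icos, Lag3 and Cd28. Pdcd1, Ctla4 and Tnfrsf9 are shown, each strand-wise from 5′ to 3′, because among the 5 genes with a window free of untranslated exon bases they had the highest levels in CD4 cells. Capitals mark GGAAA on either strand (TTTCC on the strand shown), the core letters that NFAT factors bind downstream of the T cell receptor.
Pdcd1, chr1:94052554-94052803, - strand: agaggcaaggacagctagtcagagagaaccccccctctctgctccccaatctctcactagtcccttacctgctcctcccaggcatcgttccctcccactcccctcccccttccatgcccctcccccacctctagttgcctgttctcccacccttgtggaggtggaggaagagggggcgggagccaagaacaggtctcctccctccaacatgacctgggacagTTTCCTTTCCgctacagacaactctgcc
Ctla4, chr1:60908775-60909024, + strand: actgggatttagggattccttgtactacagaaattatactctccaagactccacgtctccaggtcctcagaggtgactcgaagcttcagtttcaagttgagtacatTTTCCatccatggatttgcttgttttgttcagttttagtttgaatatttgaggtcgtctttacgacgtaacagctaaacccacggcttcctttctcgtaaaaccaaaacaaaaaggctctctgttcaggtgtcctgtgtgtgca
Tnfrsf9, chr4:150919905-150920154, + strand: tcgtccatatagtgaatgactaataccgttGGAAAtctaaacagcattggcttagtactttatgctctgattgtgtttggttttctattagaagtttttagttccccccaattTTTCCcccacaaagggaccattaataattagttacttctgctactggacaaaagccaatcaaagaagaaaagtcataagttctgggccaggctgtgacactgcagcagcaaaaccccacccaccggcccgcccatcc
The Ctla4 and Tnfrsf9 windows lie inside the longer gene models and touch no exon. GGAAA occurs 2 times in the Pdcd1 window, 1 time in the Ctla4 window and 2 times in this Tnfrsf9 window, and 55.6% of 32841 mouse windows of the same length hold it at least once. TGANTCA, the letters of AP-1 sites, is in none of the 3 windows shown and in 6.75% of all windows. A second Tnfrsf9 window, not shown, holds it 1 time and GGAAA 3 times, and the Havcr2 window, not shown, holds it 1 time. A match describes the letters only.

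Cells were gated by UMIs of marker genes. The limits on cells (over 200 and under 5000 genes, at most 25000 UMIs, under 8% mitochondrial UMIs) left 28153 cells of 34037 barcodes, 5537 to 8377 a library, and the libraries held 33087004 to 64863474 UMIs. A T line of 6886 cells had at least 2 Cd3 UMIs. Within it the CD4 gate held 458 cells (NB), 347 (2 M), 306 (10 M) and 620 (18 M), and the CD8 gate 600, 355, 469 and 403. The Foxp3 gate was small, with 37, 13, 20 and 73 cells in that order. The tables name no T cell receptor genes, so gamma-delta T cells could not be gated by Trdc, and a gate on Cd163l1 and 5830411N06Rik, chosen after the data were seen, stands for the type that makes interleukin 17 (36, 19, 47 and 86 cells). The other 2997 T line cells fell in none of these gates, so the CD4 and CD8 levels are not those of all T cells. NK cells numbered 95, 247, 289 and 61. The genes of the set had 57186 UMIs in kept cells, 43498 of them in T line and NK cells. Levels are summed UMIs of a gate per 1000000 UMIs of that gate (CPM), with exact 95% Poisson intervals, ratios of CPM have exact conditional binomial intervals and shares of cells Clopper-Pearson intervals. Lists of 4 values run over the libraries from NB to 18 M. All intervals cover counting error only, treat UMIs of a cell as independent, and say nothing of the spread between mice.

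Markers outside the gates fitted the gate names in part. Ikzf2, which regulatory T cells carry, had a UMI in 91.9 to 98.6% of Foxp3-gate cells, Blk and Il17a in 58.1 to 73.7% and 55.6 to 78.7% of gamma-delta cells, and Gzma in 91.8 to 98.8% of NK cells. Other markers were found in fewer cells. Foxp3-gate cells had Il2ra in 24.3 to 60.3% and Ikzf4 in 25.0 to 53.85%. Sox13 was in 12.8 to 22.2% of gamma-delta cells. Cd40lg was in 8.93 to 27.3% of CD4-gate cells, and Nkg7 in 38.9 to 62.5% of CD8-gate cells. CD4-gate cells can include regulatory cells whose Foxp3 was not caught: Ikzf2 had a UMI in 31.4% (NB), 5.76% (2 M), 14.7% (10 M) and 20.2% (18 M) of them. Ikzf4 gave another order, with the lowest share in NB (5.240%) and the highest in 18 M (23.87%). Il2ra was found in few CD4-gate cells, from 0.9804% in 10 M to 5.677% in NB. Which library held most regulatory cells without a Foxp3 UMI was not tested. In the library labelled 18 M, Ikzf2 was also found in 73.5% of CD8 and 73.8% of NK cells, against at most 26.2% and 19.4% in the other libraries, and the killer genes Prf1 and Klra8 in 21.3% and 11.5% of its NK cells, against at least 60.3% and 40.0% elsewhere.

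Several measurements went against the labels, so libraries are named by label wherever a direction is given. Xist, an RNA that female cells use to shut 1 X chromosome, stood at 603.5 CPM in T line cells labelled 18 M and at most 0.398 CPM in the other libraries, although all mice are labelled male. Of the 2081 T line cells of that library, 673 had Xist without a Y-linked UMI, 1053 had Y-linked UMIs without Xist, and 72 had both kinds. Rag1, which recombines antigen receptors in developing lymphocytes, had 86 UMIs in these cells and 0, 0 and 4 in NB, 2 M and 10 M. Its fibroblasts had 238 UMIs of H19 and 143 of Dlk1, fetal growth genes, against 0 to 4 in each other library, 10-day lung included. Dividing cells made up 7.26% of its T line, against 3.48, 1.97 and 2.95% in NB, 2 M and 10 M. Barcodes shared by 2 libraries numbered 131. The part of these differences in the results below was not tested beyond the values given.

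CD4-gate cells labelled NB had the highest summed level of the set, and 2 M cells the lowest. The 10 genes summed to 2805 CPM (2738 to 2873) in NB, 765.0 CPM (728.1 to 803.2) in 2 M, 1360 CPM (1308 to 1414) in 10 M and 1046 CPM (1010 to 1082) in 18 M. The 2 M sum was 0.273 times the NB sum (0.258 to 0.288), the 10 M sum 1.78 times the 2 M sum (1.67 to 1.89) and the 18 M sum 1.37 times the 2 M sum (1.29 to 1.45). Without CD4 cells that had an Ikzf2 UMI, chosen after the data were seen, the log2 ratio of 18 M to 2 M was 0.11 in place of 0.45.

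**Figure D1:**
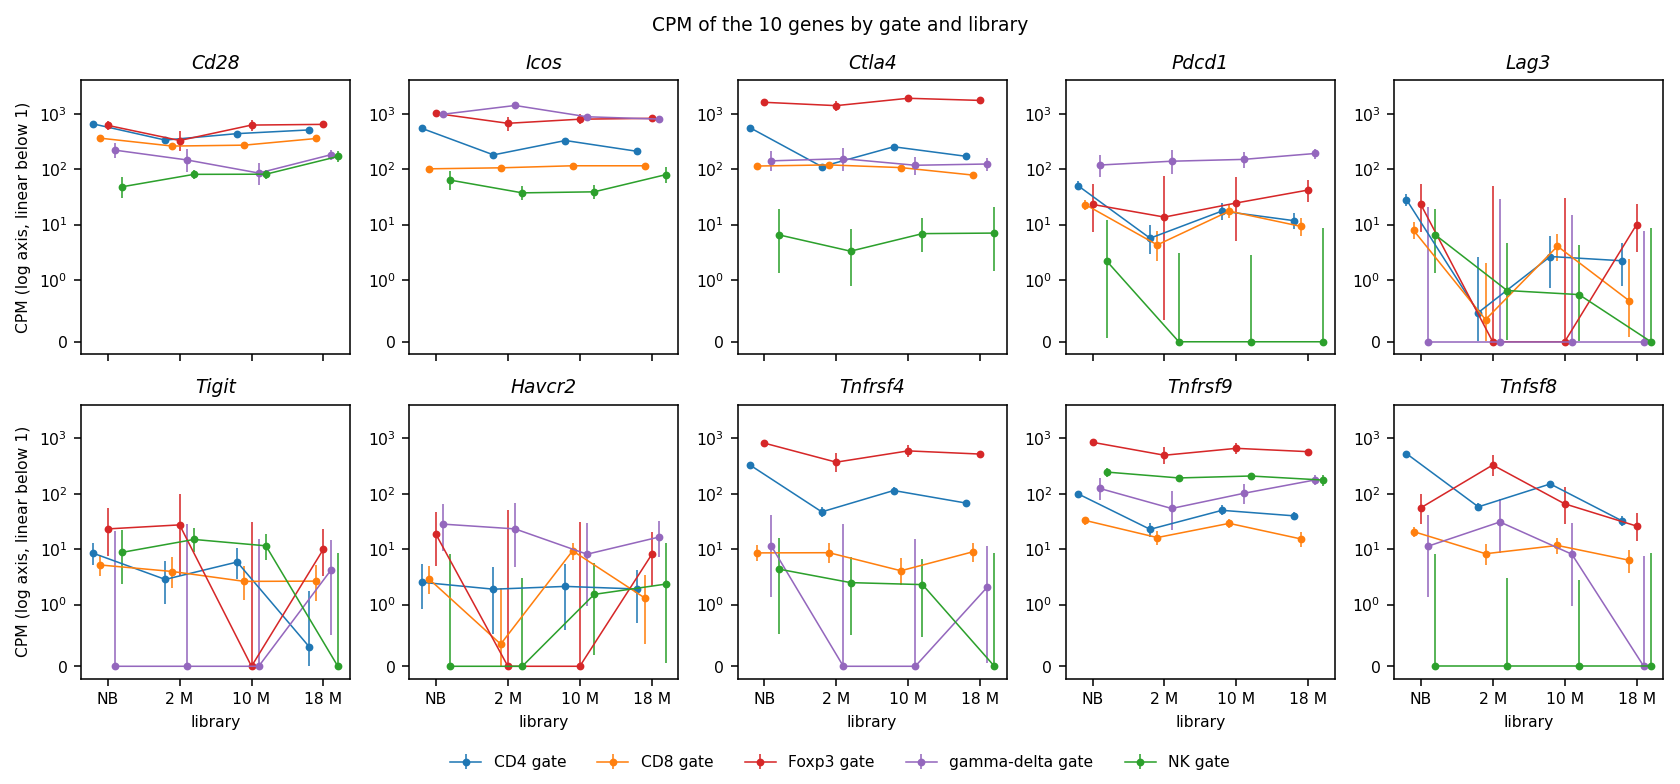
Level of each of the 10 genes (CPM, log axis) by library in the gates, with exact 95% Poisson intervals. Cd28, Icos and Ctla4 of CD4-gate cells stand highest in NB and lowest in 2 M, and Icos of gamma-delta cells stands highest in 2 M, at 1405 CPM.

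Among the costimulatory receptors of CD4 cells, Cd28 was at 653.3 CPM (NB), 334.5 (2 M), 436.9 (10 M) and 509.4 (18 M), with a UMI in 374, 264, 232 and 496 cells. The intervals of all 4 libraries lay apart. Icos was at 546.2, 180.8, 328.2 and 209.4 CPM in the same order. Cd28 labelled 18 M was 1.52 times its 2 M level (1.39 to 1.67) and Icos 1.16 times (1.02 to 1.32). The direction for Icos turned when each cell counted equally (log2 ratio -0.025) and when dividing cells were left out (-0.061). At an equal depth of 1000 UMIs, 36.9% of 18 M cells had a Cd28 UMI against 26.9% of 2 M cells, and 12.6% against 13.5% an Icos UMI.

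Ctla4 in CD4 cells was at 560.1 CPM (NB), 111.0 (2 M), 253.1 (10 M) and 170.9 (18 M). The order was that of Icos, with NB far above the rest. The 18 M level was 1.54 times the 2 M level (1.32 to 1.80), yet at 1000 UMIs 8.39% of 18 M cells and 8.65% of 2 M cells had a Ctla4 UMI, and a single 18 M cell held 50 of its 536 UMIs. As a background for such shares, B cells, which should lack Ctla4, had a UMI in 0.883, 0.136, 0.171 and 0.692% of cells at that depth from NB to 18 M. Pdcd1 was at 50.2 CPM (119 UMIs in 58 cells) in NB, 5.69 (12 UMIs in 9 cells) in 2 M, 17.6 (33 in 21) in 10 M and 11.8 (37 in 16) in 18 M. It was 2.07 times higher in 18 M than in 2 M (1.06 to 4.36), but lower as a mean over cells (log2 ratio -0.22), so its direction rests on a few cells. Between 2 M and NB the ratio was 0.114 for Pdcd1 and 0.198 for Ctla4.

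Lag3, Tigit and Havcr2 were scarce in CD4 cells of every library. Lag3, which binds MHC class II, had 67 UMIs in 41 NB cells, and 1, 5 and 7 UMIs in 2 M, 10 M and 18 M. Its 2 M level was 0.0168 times the NB level (0.000419 to 0.0968). Tigit, a receptor for Pvr, had 20, 6, 11 and 1 UMIs from NB to 18 M. Havcr2 had 6, 4, 4 and 6 UMIs, and no difference was detectable at this depth.

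The tumour necrosis factor family members were also highest in NB. Tnfsf8 was at 527.2, 57.9, 149.7 and 32.2 CPM, the NB level coming from 1250 UMIs in 218 cells. It was the gene of the set that was lower in 18 M than in 2 M beyond counting error with enough UMIs to rank, at 0.556 times (0.423 to 0.730). Tnfrsf4 was at 329.4 CPM (NB), 47.0 (2 M), 114.0 (10 M) and 67.9 (18 M). Tnfrsf9 was at 99.1, 22.8, 50.1 and 39.9 CPM. Both were higher in 18 M than in 2 M, by 1.45 times (1.13 to 1.85) for Tnfrsf4 and 1.75 times (1.25 to 2.49) for Tnfrsf9. Tnfrsf8, the receptor that Tnfsf8 binds, had at most 2 UMIs in any gate and library.

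Set beside all genes with at least 30 UMIs in a comparison, the set had larger ratios than most genes between 2 M and NB and between 10 M and 2 M in CD4 cells. Of 8 members with enough UMIs, 7 (all but Cd28) were at least 2-fold lower in 2 M than in NB, against 7.98% of 8070 genes, and the median log2 ratio over all 10 members was -2.22 against -0.05 for all genes. Between 10 M and 2 M, 5 of 7 members (Pdcd1, Ctla4, Tnfrsf4, Tnfrsf9 and Tnfsf8) were at least 2-fold higher, against 2.43% of 7622 genes, with medians of 1.16 and -0.04. Between 18 M and 2 M only Pdcd1 of 7 was at least 2-fold higher, and 7.36% of 8402 genes were. The medians there were 0.57 and 0.18. The first pair of contrasts share the 2 M library, so their opposite directions are not separate evidence.

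**Figure D2:**
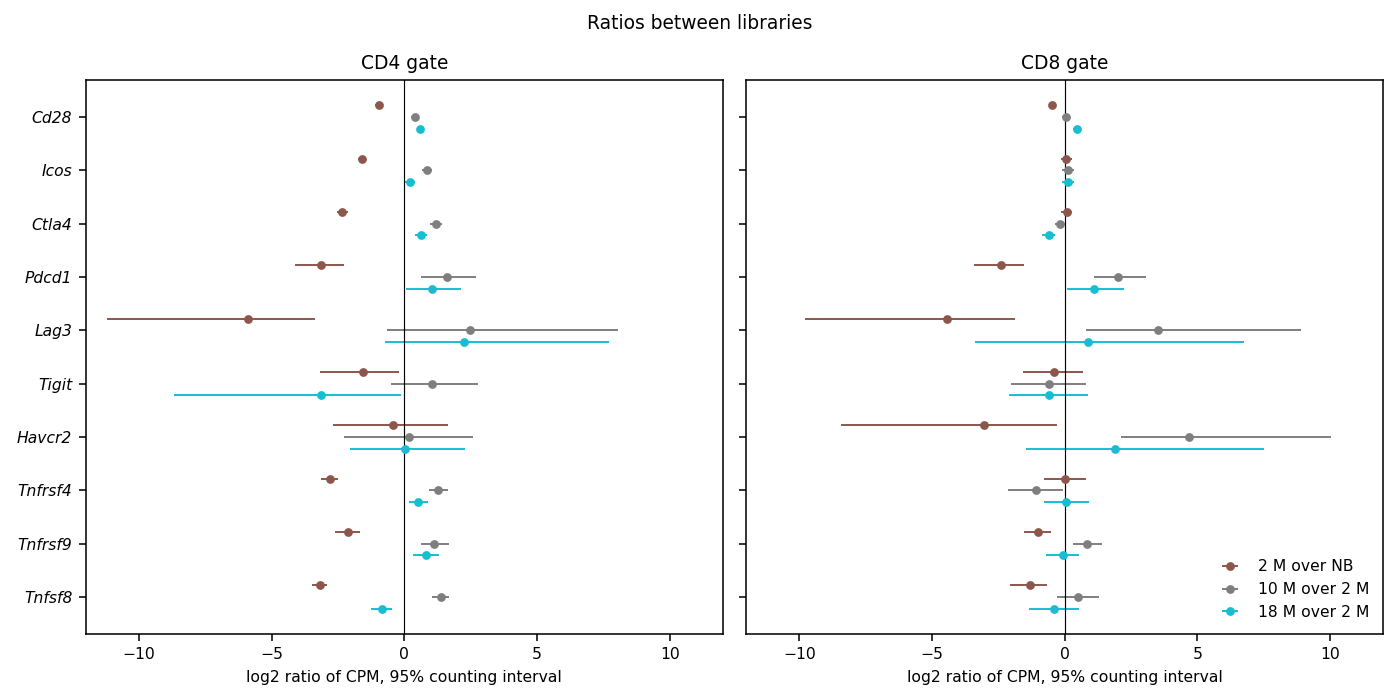
Log2 ratio of CPM of each gene in CD4-gate and CD8-gate cells for pairs of libraries, with exact 95% conditional binomial intervals and a line at equal levels. In CD4 cells 9 of 10 genes lie below the line in 2 M over NB with intervals clear of it. Tnfsf8 is the abundant gene below the line in 18 M over 2 M, at a ratio of 0.556.

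CD8-gate cells differed less between libraries. The set summed to 677.8 CPM (NB), 527.7 (2 M), 571.1 (10 M) and 594.7 (18 M), and the 18 M sum was 1.13 times the 2 M sum (1.05 to 1.21). That higher 18 M sum came from Cd28. Of 7 members with enough UMIs, 4 were higher in 18 M than in 2 M and 3 lower. The median log2 ratio over all 10 members was 0.09, against 0.13 for all genes. Cd28 was at 361.5, 260.6, 270.8 and 357.0 CPM and Icos at 101.4, 105.7, 115.1 and 115.0 CPM. Icos thus stayed within a narrow band where CD4 cells spanned 180.8 to 546.2 CPM. Ctla4 was at 113.8, 119.3, 106.7 and 78.2 CPM, and was lower in 18 M, at 0.656 times its 2 M level (0.552 to 0.777), the reverse of its ratio in CD4 cells. Neither gate's Ctla4 ratio turned in the 12 alternatives run for it. In CD4 cells 4 of the 12 left its counting interval, and the log2 ratios ran from 0.236 to 0.861. Leaving out cells with an Ikzf2 UMI was tried for the summed levels only.

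Pdcd1 in CD8 cells was at 23.0 CPM (102 UMIs in 70 cells) in NB, 4.31 (12 in 7) in 2 M, 17.5 (60 in 36) in 10 M and 9.28 (28 in 10) in 18 M. NB and 10 M cells stood above 2 M cells, with intervals that do not meet. Pdcd1 labelled 18 M was 2.15 times its 2 M level (1.06 to 4.65), but in 18 M cells with Y-linked and no Xist UMIs the log2 ratio was -0.46, from 5 against 12 UMIs. Lag3 had 35, 1, 14 and 2 UMIs from NB to 18 M, and Havcr2 13, 1, 32 and 4. Both were thus found mostly in NB and 10 M cells, as Pdcd1 was, and the 10 M to 2 M ratios were 11.4 (1.73 to 480) for Lag3 and 26.0 (4.34 to 1057) for Havcr2, each against 1 UMI. Tigit had 23, 11, 9 and 8 UMIs.

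Tnfrsf9 in CD8 cells was at 32.9 CPM (NB), 16.2 (2 M), 29.2 (10 M) and 15.2 (18 M). Tnfsf8 was at 20.7, 8.27, 11.7 and 6.30 CPM, and Tnfrsf4 at 8.56, 8.63, 4.08 and 8.95 CPM. Tnfrsf4 was among the members least shared by the lineages, and its CD8 level was 0.026, 0.184, 0.0358 and 0.132 times the CD4 level from NB to 18 M. Of 9 members with enough UMIs, 4 (Pdcd1, Lag3, Tnfrsf9 and Tnfsf8) were at least 2-fold lower in 2 M than in NB, against 4.92% of all genes. Pdcd1 and Havcr2 of 8 were at least 2-fold higher in 10 M than in 2 M (3.22% of all genes), and Pdcd1 of 7 in 18 M (5.88%).

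Foxp3-gate cells had the highest summed levels of the 5 gates in every library, 5031 CPM (4736 to 5340) in NB, 3627 (3203 to 4090) in 2 M, 4648 (4274 to 5047) in 10 M and 4385 (4203 to 4573) in 18 M. Against CD4-gate cells of the same library the sum was 1.79 times as high in NB (1.68 to 1.91), 4.74 times in 2 M (4.15 to 5.40), 3.42 times in 10 M (3.11 to 3.75) and 4.19 times in 18 M (3.97 to 4.43). The NB ratio was the smallest. Ikzf2 in CD4-gate cells was at 260.2, 43.2, 79.9 and 249.3 CPM from NB to 18 M. Ikzf4 in the same cells was lowest in NB (13.50 CPM) and highest in 18 M (65.99 CPM). The part of cells with either gene in these ratios was not tested. The 18 M sum was 1.21 times the 2 M sum (1.06 to 1.38), with a log2 ratio of 0.0018 for 18 M cells with Y-linked and no Xist UMIs. Tnfsf8, of 6 members with enough UMIs, was the 1 at least 2-fold lower in 18 M, against 4.48% of all genes.

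Ctla4 in Foxp3-gate cells was at 1603 CPM (346 UMIs in 37 of 37 cells) in NB, 1396 (102 in 11 of 13) in 2 M, 1894 (231 in 20 of 20) in 10 M and 1734 (865 in 70 of 73) in 18 M. The highest level was in 10 M and the lowest in 2 M, and Ctla4 was 2.86, 12.6, 7.48 and 10.2 times its CD4-gate level from NB to 18 M. Icos was at 1010, 670.6, 795.2 and 824.0 CPM, or 1.85, 3.71, 2.42 and 3.93 times the CD4 level. Tnfrsf9 was at 843.2, 492.7, 655.9 and 571.4 CPM. This was 8.51 times the CD4 level in NB, 21.6 times in 2 M, 13.1 times in 10 M and 14.3 times in 18 M. Tnfrsf4 was at 815.4, 369.5, 590.3 and 517.3 CPM, 2.48, 7.87, 5.18 and 7.62 times the CD4 level.

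Cd28, in contrast, was at 616.2 CPM (NB), 328.4 (2 M), 623.1 (10 M) and 641.6 (18 M), nearer its CD4-gate levels (0.943, 0.982, 1.43 and 1.26 times). It was above them beyond counting error in 10 M (1.11 to 1.81) and 18 M (1.11 to 1.42). Tnfsf8 was at 55.6, 328.4, 65.6 and 26.1 CPM, but the 2 M value came from 24 UMIs in 4 cells, 15 of them in 1 cell. Its level was 0.106 times the CD4 level in NB (0.0543 to 0.185) and 0.438 times in 10 M (0.187 to 0.875), the libraries in which CD4 cells had most of it. Pdcd1 had 5, 1, 3 and 21 UMIs, and exceeded the CD4 level beyond counting error only in the 18 M library, at 3.57 times. Lag3, Tigit and Havcr2 had at most 5 UMIs each in any library. At least 2-fold higher in Foxp3-gate than in CD4-gate cells were 3 of 8 members in NB (7.04% of all genes), 5 of 6 in 2 M (15.2%), 4 of 7 in 10 M (11.8%) and 5 of 7 in 18 M (9.14%). Ctla4, Tnfrsf4 and Tnfrsf9 were among them each time.

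**Figure D3:**
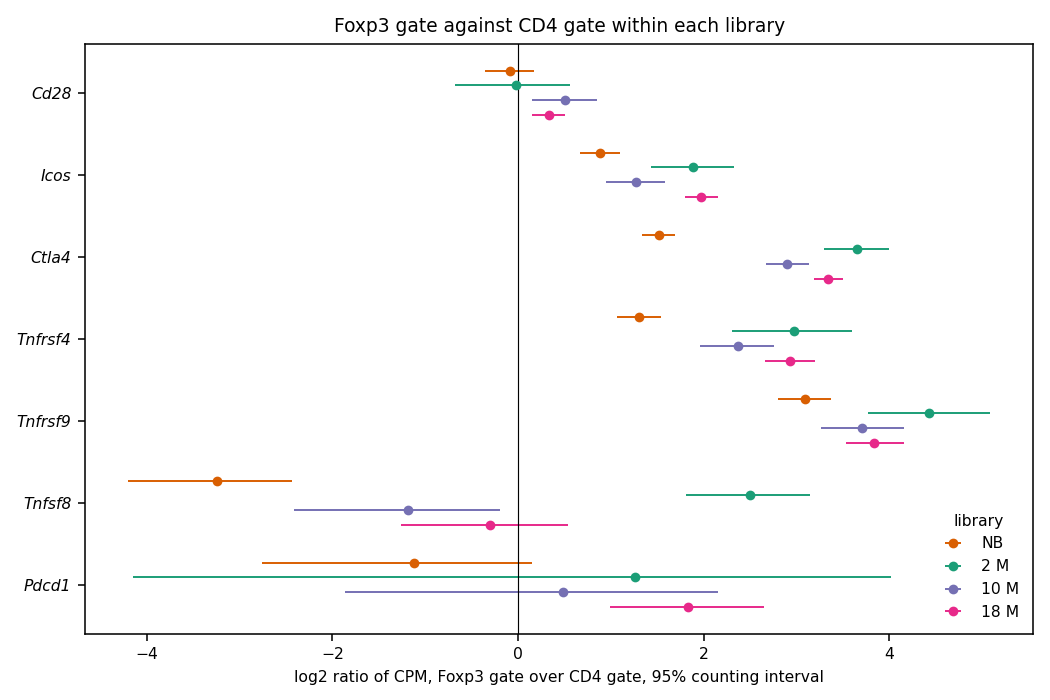
Log2 ratio of CPM of 7 genes, Foxp3-gate over CD4-gate cells of each library, with exact 95% conditional binomial intervals and a line at equal levels. Ctla4 and Tnfrsf9 lie above the line in every library, while the intervals of Cd28 cross it in NB and 2 M.

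Gamma-delta cells of the gate used here were set apart by Pdcd1, and by Icos from CD4, CD8 and NK cells only. Foxp3-gate cells had Icos at 1010, 670.6, 795.2 and 824.0 CPM, above gamma-delta cells in NB and 18 M. Icos was at 977.2 CPM (173 UMIs in 29 of 36 cells) in NB, 1405 (182 in 17 of 19) in 2 M, 879.5 (217 in 38 of 47) in 10 M and 798.4 (387 in 67 of 86) in 18 M. The highest level was in 2 M, unlike in CD4 cells, and 18 M was at 0.568 times that level (0.475 to 0.681). Pdcd1 was at 118.6 CPM (21 UMIs in 12 cells) in NB, 139.0 (18 in 5) in 2 M, 150.0 (37 in 17) in 10 M and 191.9 (93 in 44) in 18 M. These were the highest Pdcd1 levels of the 5 gates in every library, and at 1000 UMIs 10.4, 10.8, 13.8 and 17.6% of the cells had a Pdcd1 UMI, against 4.27, 0.590, 1.79 and 0.495% of CD4-gate cells. The 18 M to 2 M ratio of Pdcd1 was 1.38 (0.827 to 2.43). Cd163l1, a gene of this gate, was also found in 10.4% of CD8-gate cells labelled 18 M, against at most 0.667% in the other libraries. Eomes had a UMI in 9.30% of gamma-delta cells labelled 18 M and in at most 2.13% of those of the other libraries. Whether the gate is equally pure in each library was not tested.

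**Figure D4:**
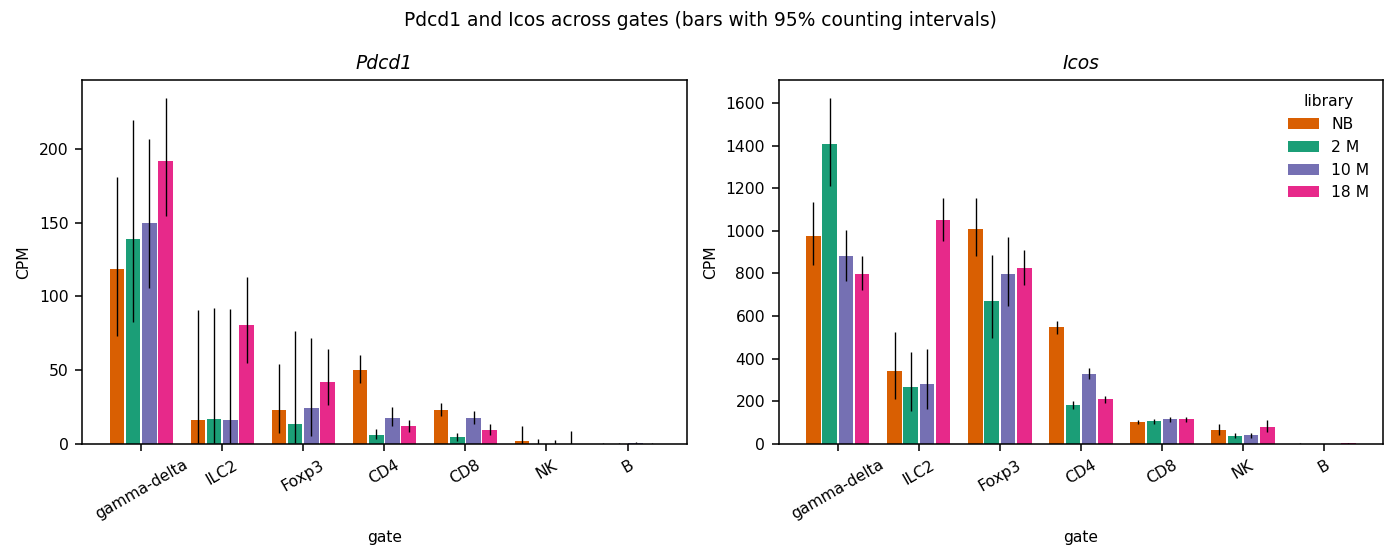
Levels of Pdcd1 and Icos (CPM) by gate and library with exact 95% Poisson intervals. Pdcd1 is at 118.6 to 191.9 CPM in gamma-delta cells and at most 50.2 CPM in CD4-gate cells.

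Tnfrsf9 in gamma-delta cells was at 124.3 CPM (NB), 54.1 (2 M), 101.3 (10 M) and 177.4 (18 M), and 18 M was 3.28 times 2 M (1.53 to 8.41), resting on 7 UMIs in 2 M. It was the 1 member of 5 that was at least 2-fold higher, against 7.46% of all genes. Ctla4 was at 141.2, 154.4, 117.5 and 123.8 CPM and Cd28 at 220.3, 146.7, 85.1 and 181.5 CPM. Lag3 had 0 UMIs in all 4 libraries, where the floor of 3 UMIs would be 16.9, 23.2, 12.2 and 6.19 CPM. Tigit, Tnfrsf4 and Tnfsf8 had at most 4 UMIs in a library, and Havcr2 5, 3, 2 and 8. The set summed to 1632, 1954, 1350 and 1496 CPM, with 18 M at 0.766 times 2 M (0.663 to 0.887).

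NK cells were led by Tnfrsf9, at 244.9 CPM (NB), 192.0 (2 M), 208.1 (10 M) and 176.1 (18 M), with a UMI in 43.2, 45.7, 43.3 and 62.3% of cells. Its 18 M to 2 M ratio was 0.917 (0.697 to 1.20). Cd28 was at 48.1, 80.6, 81.1 and 169.1 CPM and Icos at 63.4, 37.4, 39.0 and 79.9 CPM. In 18 M both were higher than in 2 M, Cd28 by 2.10 times (1.52 to 2.88) and Icos by 2.14 times (1.33 to 3.41), 2 of 3 members against 4.42% of all genes. The 61 NK cells labelled 18 M were also those with little Prf1 and Klra8 and much Ikzf2, and 18.0% of them were dividing, against 4.45% in 2 M. Tigit had 4, 18, 15 and 0 UMIs, and with the 0 of 18 M set to a floor of 3 UMIs its level was 2.12-fold lower than in 2 M. Pdcd1 had 1 UMI over all NK cells, Tnfsf8 none and Ctla4 3 to 9 per library. The set summed to 384.8, 331.6, 351.2 and 434.5 CPM.

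In the library labelled 18 M, cells with Xist and no Y-linked UMI were set beside cells with Y-linked and no Xist UMIs. Among CD4 cells (183 and 321) the set summed to 1.36 times as much in the Xist cells (1.26 to 1.46), with Ctla4 at 1.85, Icos at 1.53 and Cd28 at 1.24 times. Among Foxp3-gate cells (32 and 31) the sum was 1.48 times and Icos 1.94 times (1.54 to 2.46) as high. Pdcd1 of CD8 cells had 15 UMIs in 126 Xist cells and 5 in 215 Y-linked cells, a ratio of 5.21 (1.80 to 18.3). The CD8 sum was 1.14 times as high (1.03 to 1.27). In gamma-delta cells the sum was 1.24 times (1.06 to 1.45) and Icos 1.34 times (1.08 to 1.66) as high, while Pdcd1 did not differ detectably (1.01, 0.644 to 1.59). In NK cells the sum did not (1.04, 0.751 to 1.44). Sex and animal of origin cannot be told apart here.

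Genes of the set were found together in single cells. The mean CD4 cell had 1.77 of the 10 genes at a depth of 1000 UMIs (NB), 0.607 (2 M), 0.951 (10 M) and 0.683 (18 M). Foxp3-gate cells had 2.80, 2.17, 2.67 and 2.40, NK cells 0.303, 0.288, 0.289 and 0.429, and B cells at most 0.0208. In NB, 33.2% of CD4 cells had 5 or more of the genes, against 4.32% in 2 M, 14.1% in 10 M and 4.19% in 18 M, without thinning. Of 58 NB CD4 cells with Pdcd1, 81.0% also had Ctla4 and 82.8% Tnfrsf4, against 61.8% and 42.3% of the other cells, at median depths of 4625 and 4596 UMIs. In 10 M, Ctla4 was found in 85.7% of 21 cells with Pdcd1 and in 37.2% of the others. Of the 41 NB cells with Lag3, 92.7% had Icos and 82.9% Tnfsf8, against 63.5% and 44.1% of the others.

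Outside these gates, cells with Gata3 and Il7r UMIs and no Cd3 were taken as type 2 innate lymphoid cells, which respond to tissue alarm signals. They carried Icos at 343.4 CPM (NB), 265.3 (2 M), 279.1 (10 M) and 1049 (18 M), from 16, 13, 16 and 65 cells. Cd28 in them was at 294.4, 298.5, 262.7 and 168.1 CPM. Whether T cells whose Cd3 was not caught are among them was not tested. Pdcd1 there was at 80.3 CPM (32 UMIs in 16 cells) in 18 M, and 1 UMI in each other library. T line cells in no gate had Pdcd1 at 15.7 CPM (NB), 1.90 (2 M), 10.5 (10 M) and 29.3 (18 M), and 18 M was 15.5 times 2 M (7.33 to 39.2). Dividing cells made up 7.12% of these cells in 18 M and 1.36% in 2 M. Havcr2 was found more in alveolar macrophages (67.4, 96.3, 83.4 and 32.4 CPM) and dendritic cells (32.9, 41.1, 47.3 and 113.9 CPM) than in any T cell gate. Lag3 was at 42.0, 13.7, 24.9 and 5.62 CPM in dendritic cells, from NB to 18 M. B cells summed to 38.5, 12.6, 18.99 and 24.7 CPM over the set.

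Other T cell receptors of the same kinds were taken as a list of 18 genes, of which 13 had enough UMIs in CD4 cells of 2 M and NB. In 2 M, 12 of them were lower than in NB and 1 was higher, 9 and 0 beyond counting error (median log2 ratio -1.26). Of all genes with at least 30 UMIs, 45.6% were higher in 2 M than in NB, with a median of -0.05. Cd40lg, the helper signal to B cells, was at 0.25 times the NB level, Cd101 at 0.322, Cd200 at 0.323 and Cd226, which competes with Tigit for Pvr, at 0.368 times. Between 18 M and 2 M, 7 of 12 were higher and 5 lower, where 63.6% of all genes were higher, so the list was near the background. Beyond counting error were Vsir (1.35), Cd5 (1.21) and Tnfrsf18 (0.751). The last also stood lower in CD8 cells (0.505). In Foxp3-gate cells Klrg1, a receptor of mature regulatory and effector cells, was 4.98 times as high in 18 M as in 2 M (1.33 to 42.0, 68 against 2 UMIs), while in NK cells Klrg1 was at 0.116 times (0.0234 to 0.353) and Cd244 at 0.335 times.

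Genes of T cell states differed between the CD4 cells of the libraries as well. Of genes that naive cells carry, Lef1 was at 2.95, Ccr7 at 2.34 and S1pr1 at 1.98 times the NB level in 2 M, while Il7r was at 0.841 times. Of 16 antigen-experienced genes 14 were lower in 2 M than in NB, all 14 beyond counting error, where 45.6% of all genes were higher, with Tbx21 at 0.0652, Cxcr3 at 0.150, S100a4 at 0.153 and Ikzf2 at 0.166 times. In 10 M against 2 M, Tbx21 was at 9.82, Ccl5 at 6.89, Cxcr3 at 4.68 and S100a4 at 3.17 times. In 18 M the list was split, with 6 of 15 higher than in 2 M and 9 lower, where 63.6% of all genes were higher, among them Ikzf2 at 5.77, S100a4 at 2.87, Ccl5 at 0.290 and Eomes at 0.138 times.

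Of 15 ligand genes, 7 had enough UMIs in CD4 cells of 18 M and 2 M, of which 5 were higher and 2 lower, near the 63.6% of all genes that were higher. Tnfsf9, the ligand of Tnfrsf9, was at 3.70 times (22 against 4 UMIs), Cd274 at 2.94, Lgals9 at 1.43 and Pvr at 0.728 times. In the cells that present antigen, Cd86 was at 389.3, 287.4, 263.9 and 250.3 CPM in dendritic cells and at 326.3, 254.8, 256.4 and 121.1 CPM in B cells from NB to 18 M. Cd274 was at 504.0, 548.4, 364.3 and 516.7 CPM in neutrophils and at 375.8, 321.6, 314.1 and 188.5 CPM in alveolar macrophages. Icosl, the ligand of Icos, was at 110.9, 99.6, 87.8 and 53.9 CPM in alveolar macrophages. It was thus lowest in 18 M there, and in B cells too (27.5, 32.7, 31.9 and 11.8 CPM). Tnfsf4, the ligand of Tnfrsf4, was at 40.2, 13.7, 17.4 and 0 CPM in dendritic cells.

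Over the 20 sums of 5 gates and 4 libraries, the genes most like each member among 10539 genes were named by Pearson correlation of log2(CPM + 1), as a description, since sums of a library share its preparation. Pdcd1 was most like Il7r (0.908), Crmp1 (0.901) and Irf4 (0.880), Ctla4 most like Nt5e (0.940), Ass1 (0.939) and Bmyc (0.931), and Icos most like Aebp2 (0.95), Cish (0.933) and Crmp1 (0.930). Cd28 had Cd5 (0.915), Il6ra (0.909) and Cd6 (0.909) at its head, Tnfrsf9 had Hacd3 (0.934), Ucp2 (0.933) and Stx11 (0.930), and Tnfsf8 had Batf (0.852), Trib2 (0.850) and Bmyc (0.847). For the scarce Lag3, Tigit and Havcr2 the leading genes were Cdkn2b (0.832), Polr2b (0.848) and Zfp523 (0.846). Among pairs of members the highest were Pdcd1 with Icos (0.868), Ctla4 with Tnfsf8 (0.814) and Ctla4 with Cd28 (0.814). Tnfrsf4 was most like Sdf4 (0.935), followed by Elf1 (0.922) and Sh3gl3 (0.912).

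Sdf4 ends 232 bases before Tnfrsf4 on the same strand. It was at 342, 199, 244 and 194 CPM in CD4 cells and 385, 219, 369 and 287 CPM in Foxp3-gate cells from NB to 18 M. In CD8 cells, where Tnfrsf4 was at 4.08 to 8.95 CPM, Sdf4 was at 140 to 161 CPM. In NK cells it was at 115 to 127 CPM. Sdf4 thus kept a level where Tnfrsf4 was near 0, and was higher in the gates and libraries with much Tnfrsf4. Whether reads of the pair can be told apart by the authors' counting was not tested. Tnfrsf18, the next receptor of the family, lies 9551 bases after Tnfrsf4 and had a correlation of 0.872 with it.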

How the data were processed

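The deposited tables give unnormalized UMI counts for each gene in each cell, which the authors made with Cell Ranger 3.0.2 against mm10 by the submitters' processing notes (the matrix headers name software 3.1.0). Seurat 2.0 is named for later steps. Cell limits follow the methods, with 25000 UMIs read as an upper limit. Doublets were not called, and T line cells with over 1 B cell UMI (Cd79a, Ms4a1) or over 2 myeloid UMIs (Lyz2, Csf1r, C1qa, C1qb) were left out.

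Gates were CD4 (at least 1 Cd4 UMI, no Cd8a, Cd8b1 or Foxp3), CD8 (at least 2 Cd8a and Cd8b1 UMIs, no Cd4 or Foxp3), Foxp3 (at least 1 UMI, no Cd8a or Cd8b1), gamma-delta (Cd163l1 or 5830411N06Rik, no Cd4, Cd8a, Cd8b1 or Foxp3, in place of a planned gate on Trdc that held 0 cells) and NK (no Cd3, at least 2 UMIs of Ncr1, Klrb1c and Klre1). Dividing cells had at least 2 UMIs of Mki67, Top2a, Ccna2, Birc5 and Cdk1. UMIs were summed per gate and library. Each age has 1 library, so no test or p-value is given. Shares at 1000 UMIs are the hypergeometric expectation, and shallower cells were left out. Ratios used for medians had 0.5 UMIs added to each count. An exact 0 has a floor of 3 UMIs. Intervals of ratios were tried on simulated counts with independent UMIs only, which leaves out UMIs clustered in single cells.

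Besides the 10 genes, those named are up to 4 per list with at least 10 UMIs and the largest ratios beyond counting error, and the 3 genes most like each member among genes with at least 50 UMIs. A 2-fold difference over genes with at least 30 UMIs gave the background. A split of T cells into naive and antigen-experienced cells, and 1 gene, are not reported here. The members and lists were chosen with earlier results of these data known. Computation used Python 3.11.15 with scipy 1.17.1, pandas 2.3.3 and numpy 2.4.6, and plots matplotlib 3.10.9.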

Additional observations from a re-analysis of the deposited data

Results flagged for a closer look

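Some genes of the set had ratios beyond counting error in opposite directions in different gates under the same contrast, and these differences between gates were not tested, since each age has 1 library. Ctla4 of 18 M over 2 M was at 1.539 in CD4 cells and 1.242 in Foxp3-gate cells, and at 0.6555 in CD8 cells. Icos in that contrast was at 1.158 in CD4 cells and 2.135 in NK cells, and at 0.5681 in gamma-delta cells. The CD4 value of Icos turned when dividing cells were left out, and the Foxp3-gate value of Ctla4 was near 1 in 18 M cells with Y-linked and no Xist UMIs.

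Icos of 2 M over NB was at 1.438 in gamma-delta cells, against 0.331 in CD4, 0.6639 in Foxp3-gate and 0.5899 in NK cells. Cd28 of 2 M over NB was at 1.676 in NK cells, against 0.5121 in CD4, 0.7209 in CD8 and 0.533 in Foxp3-gate cells. Tnfsf8 of 2 M over NB was at 5.908 in Foxp3-gate cells, where 4 cells held its 2 M UMIs, against 0.1098 in CD4 and 0.399 in CD8 cells. Icos of 10 M over 2 M was at 1.815 in CD4 cells and 0.6258 in gamma-delta cells. Tnfrsf4 in that contrast was at 2.427 in CD4 and 1.598 in Foxp3-gate cells, against 0.473 in CD8 cells. Tnfsf8 of 10 M over 2 M was at 2.586 in CD4 cells and 0.1997 in Foxp3-gate cells.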

How the results depend on the processing

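No paired analysis was possible because each age has 1 library. No summed level changed direction. Of 135 alternative values of the summed ratios, 112 stayed within the counting interval of the reported value and 23 did not. On the log2 scale, 18 M over 2 M in CD4 cells (0.45) was 0.25 as a mean over cells, 0.36 with totals without ribosomal protein, mitochondrial and haemoglobin genes, 0.26 without dividing cells, 0.34 with Y-linked 18 M cells, 0.55 with stricter gates and 0.11 without cells with an Ikzf2 UMI. The same ratio in Foxp3-gate cells (0.27) was 0.0018 with Y-linked 18 M cells. Foxp3-gate over CD4-gate cells in NB (0.84) was 0.74 with B and myeloid UMIs allowed, 0.74 with the reduced totals and 0.69 with stricter gates. With the reduced totals it was 2.04 in 2 M (2.24), 1.56 in 10 M (1.77) and 1.91 in 18 M (2.07). Without dividing cells it was 1.92 in 10 M and 2.23 in 18 M. In 18 M it was also 2.24 (mean over cells), 1.91 (Y-linked cells) and 1.90 (stricter gates). CD4 cells of 2 M over NB (-1.87) were at -1.74 with the reduced totals, -1.96 with stricter gates and -1.66 without Ikzf2 cells, and those of 10 M over 2 M (0.83) at 0.71 without dividing cells and 0.53 without Ikzf2 cells. The alternatives of the last 2 contrasts and the Ikzf2 alternative were chosen after the data were seen.

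Of 693 alternative values of single genes, 673 stayed within the counting interval of the reported value. In all, 27 had the other sign. For 23 of them, over 9 results that include Havcr2 of CD4 cells and Icos of CD8 and Foxp3-gate cells, the reported interval held 0. The other 4, where it did not, were Pdcd1 (-0.22) and Icos (-0.025) of CD4 cells, 18 M over 2 M, as means over cells, Icos of CD4 cells without dividing cells (-0.061) and Pdcd1 of CD8 cells with Y-linked 18 M cells (-0.46). The cause was not tested. Depth limits Lag3, Tigit and Havcr2 in every gate, and all but the leading genes of the Foxp3 and gamma-delta gates, where 1 UMI is 2.00 to 13.7 CPM.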
